A study of Homo sapiens with 8 samples.

Results

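The transcripts of 45 interferon-stimulated genes and their regulators were followed in PC9, a human lung adenocarcinoma cell line, and in its brain metastatic derivative PC9-BrM3. The genes were taken by symbol from a written list, which was chosen with earlier results of these data known. Each of the 45 matched 1 of the 63677 Ensembl gene identifiers of the count tables. Of these 45, 37 had enough counts to be tested in each comparison, 35 of them in both. Total RNA was sequenced from 4 groups of 2 libraries. PC9 parental and PC9-BrM3 cells were untransduced and were harvested after 48 h in culture. The other 2 groups were PC9-BrM3 cells that carried a lentiviral, doxycycline-inducible shRNA plasmid, Tet-pLKO-shNTC (non-target control) or Tet-pLKO-shHSF1 (clone 7480). Both transduced groups were selected in puromycin for 5 days and given doxycycline at 500 ng/mL for 48 h. HSF1, the heat shock transcription factor, was thus targeted with 1 hairpin, so loss of HSF1 and any off-target action of the hairpin cannot be told apart. Nothing in the labels says that the 2 libraries of a group are separate cultures. The p-values therefore measure only how far these libraries spread, which may be technical.

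Interferons are secreted proteins, and cells release those of type I and type III when they sense viral nucleic acid. Type I and type III interferons signal through JAK1 and TYK2 to a complex that holds STAT2 and IRF9 and binds a promoter element called the interferon-stimulated response element (ISRE). Type II interferon acts through another element, the gamma-activated site (GAS). The induced genes encode RNA sensors, antiviral effectors and the factors themselves, and tumour cells can express a part of them with no added interferon.

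Libraries held 33550140 to 56715336 gene-assigned counts, so a count of 0 (taken as up to 3 counts) allowed at most 0.0529 to 0.0894 CPM (counts scaled to the library total) in 1 library. HSF1 stood at 181 and 182 normalized CPM in shNTC and at 15.7 and 13.3 in shHSF1, differing by a log2 value of -3.61 ± 0.08 (SE, n = 2 per group; edgeR adjusted p = 2.66e-08). The 9 epithelial markers summed to 3290 to 7010 CPM, with EPCAM between 357 and 559, whereas the lung lineage factor NKX2-1 did not pass 0.193 CPM. Of these 9, 8 were tested. With shHSF1 3 passed as higher and 1 as lower, and in PC9-BrM3 0 passed as higher and 1 as lower. The 10 leukocyte markers summed to 1.72 to 3.09 CPM per library, with MS4A1 and the plasmacytoid dendritic cell marker CLEC4C at 0 counts. Of these, LYZ passed a test: it fell with shHSF1 from 1.21 and 0.892 to 0.260 and 0.221 CPM (edgeR adjusted p = 0.00122). The fibroblast markers DCN and LUM were at 0 counts, and COL1A1 ran from 4.90 to 30.2 CPM, rose with shHSF1 and was highest there. Of the 3 endothelial markers, CDH5 ran from 18.4 to 55.4 CPM and fell in both comparisons, VWF ran from 0.207 to 1.06 CPM and rose with shHSF1 (edgeR adjusted p = 0.0375), and KDR had 1 count in all. The 5 brain cell markers summed to 94.6 to 162 CPM, nearly all of it MBP, which fell with shHSF1 (edgeR adjusted p = 0.0024); GFAP did not pass 0.386 CPM, and AQP4, RBFOX3 and AIF1 had at most 1 count in a library. The part of these marker levels in the results below was not tested. PC9-BrM3 replicate 2 stood apart by its mitochondrial share of 17.3% of counts, against 1.4% to 6.23% in the other libraries. Per the file headers, reads of untransduced cells carry lane 7 and reads of transduced cells lane 1, and every test stayed within a lane.

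Promoter windows from RefSeq (GRCh38.p14, 250 bases before to 50 after the start) were found for 36 of the 45 genes, 47 windows in all, some of which overlap. The ISRE core was searched as GAAA, any 2 bases and GAAA on both strands, and the GAS as TTC, any 3 bases and GAA, which reads the same on both strands. Matches may overlap. An ISRE core lay in 29 of the 47 windows (61.7%), for 25 genes, against 3.57% of all 35116 windows of this length. A GAS lay in 12 windows (25.5%), against 7.66% of all. The heat shock element, searched on both strands as GAA, TTC and GAA with any 2 bases between them, lay in 0 of the 47, against 0.49% of all. At so low a share, 0 of 47 windows cannot show that these genes lack the element. Windows are shown for 6 genes on which the results turn, with the ISRE matches in capitals and the strand of the gene read 5′ to 3′. BST2, OAS3, GBP1 and EPSTI1 passed the test in both comparisons, IFIT1 had the deepest fall of the 45 genes with the HSF1 hairpin, and ISG15 rose with it. The windows are chr19:17405581-17405880 (minus strand) for BST2, chr12:112938224-112938523 (plus) for OAS3, chr1:89065159-89065458 (minus) for GBP1, chr13:42992192-42992491 (minus) for EPSTI1, chr10:89392373-89392672 (plus) for IFIT1 and chr1:1013247-1013546 (plus) for ISG15.
BST2: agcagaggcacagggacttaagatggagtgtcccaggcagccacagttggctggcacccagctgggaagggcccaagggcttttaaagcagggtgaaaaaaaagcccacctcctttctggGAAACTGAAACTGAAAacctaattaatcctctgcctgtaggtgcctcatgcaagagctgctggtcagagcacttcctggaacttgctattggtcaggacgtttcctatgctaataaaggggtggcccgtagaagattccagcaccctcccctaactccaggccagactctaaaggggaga
OAS3: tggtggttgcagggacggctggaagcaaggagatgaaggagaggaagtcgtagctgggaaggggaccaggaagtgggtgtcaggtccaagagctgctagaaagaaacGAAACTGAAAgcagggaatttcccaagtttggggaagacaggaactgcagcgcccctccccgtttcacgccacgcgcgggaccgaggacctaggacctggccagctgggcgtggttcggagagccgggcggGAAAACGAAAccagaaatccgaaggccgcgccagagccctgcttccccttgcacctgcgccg
GBP1: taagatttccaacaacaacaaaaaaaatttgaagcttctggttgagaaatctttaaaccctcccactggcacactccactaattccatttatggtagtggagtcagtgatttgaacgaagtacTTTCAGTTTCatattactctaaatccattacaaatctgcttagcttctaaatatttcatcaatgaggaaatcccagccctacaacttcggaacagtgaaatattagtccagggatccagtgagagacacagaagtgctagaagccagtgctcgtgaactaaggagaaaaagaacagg
EPSTI1: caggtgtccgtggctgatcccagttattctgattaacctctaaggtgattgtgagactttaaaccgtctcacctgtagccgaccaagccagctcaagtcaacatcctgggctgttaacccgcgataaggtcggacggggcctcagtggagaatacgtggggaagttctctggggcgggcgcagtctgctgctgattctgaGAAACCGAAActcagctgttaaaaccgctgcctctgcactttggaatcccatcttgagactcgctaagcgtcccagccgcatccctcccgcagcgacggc
IFIT1: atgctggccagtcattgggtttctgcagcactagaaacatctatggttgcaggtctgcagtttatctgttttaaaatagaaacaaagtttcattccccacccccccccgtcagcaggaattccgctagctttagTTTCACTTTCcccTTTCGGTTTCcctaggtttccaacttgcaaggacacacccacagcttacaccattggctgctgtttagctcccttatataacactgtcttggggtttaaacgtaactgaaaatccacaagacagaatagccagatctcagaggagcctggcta
ISG15: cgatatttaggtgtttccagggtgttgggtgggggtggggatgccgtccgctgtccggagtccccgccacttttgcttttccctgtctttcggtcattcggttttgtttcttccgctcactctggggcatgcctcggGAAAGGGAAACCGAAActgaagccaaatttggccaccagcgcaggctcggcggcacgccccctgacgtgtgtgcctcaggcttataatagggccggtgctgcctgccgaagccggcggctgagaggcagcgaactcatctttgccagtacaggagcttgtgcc
In BST2 the 2 matches overlap, and their first bases lie at -130 and -124 from the start. The OAS3 matches begin at -143 and -12, those of IFIT1 at -116 and -103 and those of ISG15 at -113 and -107, while GBP1 has 1 match at -127 and EPSTI1 1 at -50. A core was found in genes of either direction: in 4 of 4 genes with a window that were higher with shHSF1 and in 7 of 12 that were lower. It was also found in 9 of the 14 that were tested there and did not pass. Both windows of XAF1 hold none. Cores with 1 base between them were not searched, and the XAF1 window from 6755796 holds GAAACGAAA, as do those of OAS1 and DDX58. These matches are letters in a window and were not tested as binding sites.

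The subline comparison asks which transcripts differ between brain metastatic PC9-BrM3 and PC9 parental cells. In PC9-BrM3, 9 of the 37 tested genes were higher and 0 lower by edgeR's quasi-likelihood test, namely BST2, XAF1, GBP1, GBP2, EPSTI1, OAS3, DHX58, IFIT3 and IFIT5. Over all 17372 genes tested, 7.14% passed, 3.87% as higher and 3.27% as lower. The median log2 fold change of the 37 genes was 0.36, beside 0.01 over all genes tested. All 9 calls were of at least 2-fold, as were 1032 of the 1240 calls over all genes. Over the genes tested, that is 24.3% of the 37, beside 5.94% of all. Groups did not overlap for 24 of the 37, beside 58.8% of all genes. XAF1, EPSTI1 and OAS2 had under 10 counts in each PC9 parental library and passed the filter on low counts through PC9-BrM3. IFI6 (9 and 16 counts in PC9 parental) also needed PC9-BrM3 to pass. IFITM1 passed through PC9 parental, as did HERC5 (10 and 3 counts in PC9-BrM3). The counts over the 37 are therefore a description. The list was also chosen with earlier results of these data known, so in either comparison its share beside that of all genes is no test. At an unadjusted p under 0.05, 4 of the 37 genes were lower in PC9-BrM3, and DESeq2 called 1 lower at its adjusted threshold. The count depended on the libraries, as did that over all genes. Without PC9 parental replicate 1 or replicate 2, 4 of the 37 passed each time (10.8%), beside 2.23% and 2.64% of all genes. Without PC9-BrM3 replicate 2, 20 passed (15 higher, 5 lower; 54.1%), beside 30.8% of all genes. Without PC9-BrM3 replicate 1, 19 passed (15 higher, 4 lower; 51.4%), the same share as the 51.1% of all genes.

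The knockdown comparison asks what differs between shHSF1 and shNTC cells. With shHSF1, 14 of the 37 tested genes were lower and 5 higher. The lower ones were STAT2, PARP9, DTX3L, PARP14, OAS1, OAS3, OASL, MX1, IFIT1, IFIT2, HERC6, BST2, IFI35 and XAF1, and the higher ones were GBP1, GBP2, ISG15, SAMD9 and EPSTI1. That is 51.4% of the 37, and nearly as large a share of all genes passed: 45.7% of 16840, 23.5% as lower and 22.2% as higher, beside 37.8% and 13.5% of these 37. Their median log2 fold change was -0.29, beside 0.01 over all genes tested. Of the 19 calls 7 were of at least 2-fold, as were 1749 of the 7701 calls over all genes. Over the genes tested, that is 7 of the 37, beside 10.4% of all. Groups did not overlap for 28 of the 37, beside 72.8% of all genes. With all 8 libraries in 1 fit, 11 of 39 tested passed (8 lower, 3 higher; 28.2%), beside 21.4% of all genes. IFIT1 had under 10 counts in each shHSF1 library and passed the filter through shNTC. HERC5 (10 and 9 counts in shHSF1) and SAMD9L (17 and 8) also needed shNTC to pass it. The counts by gene group below stand beside these shares over all genes.

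**Figure D1:**
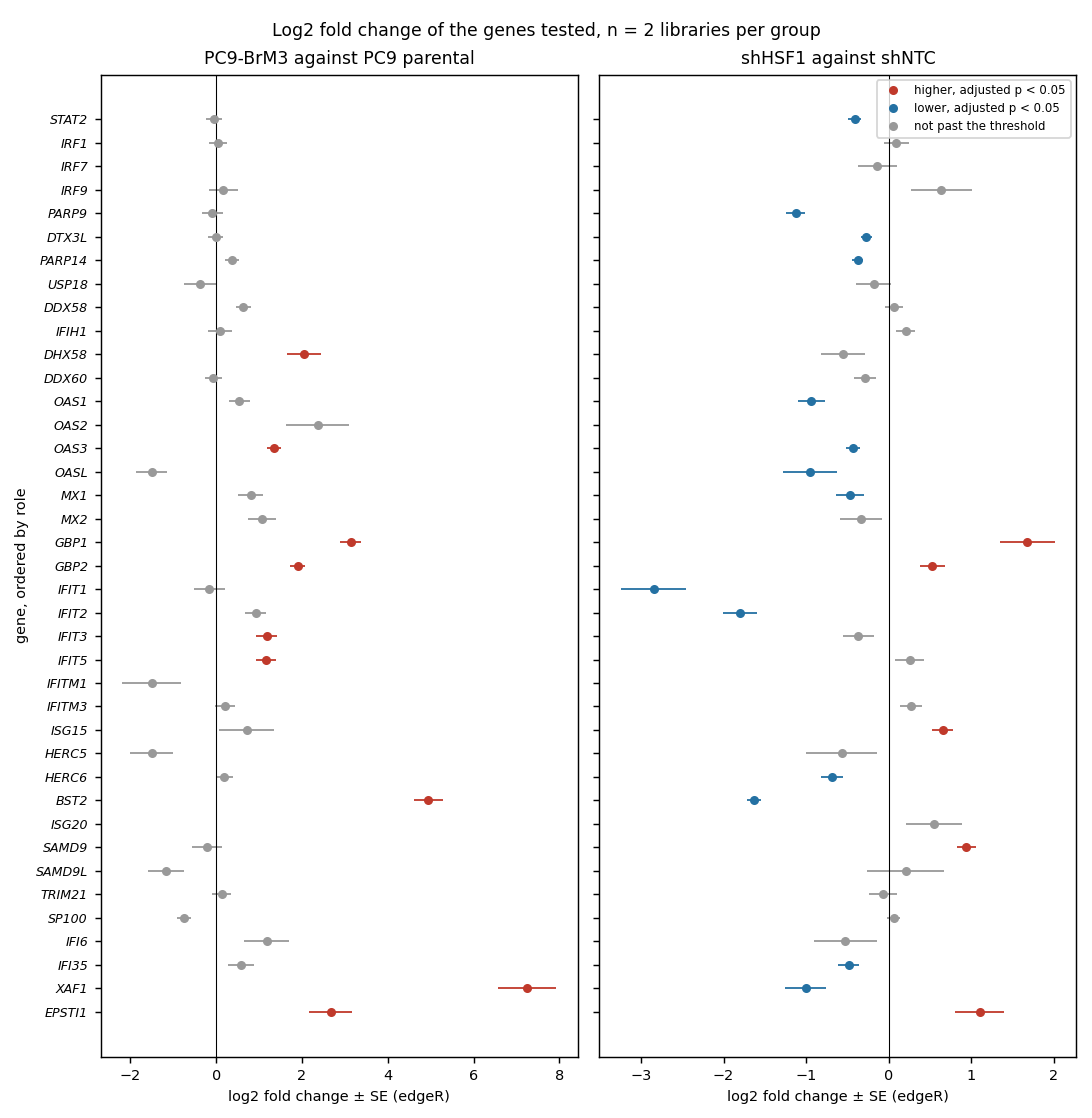
Log2 fold change with its standard error (horizontal axis) for each gene tested in at least 1 comparison (vertical axis, ordered by role), with PC9-BrM3 against PC9 parental on the left and shHSF1 against shNTC on the right. Red and blue points passed an adjusted p of 0.05, grey ones did not, and the scales of the panels differ; on the left all 9 of them lie to the right of 0, and on the right 14 lie to the left of 0 and 5 to the right.

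The ligand genes that were read were nearly absent, and IFNA1 and IFNA2 were the only IFNA genes among them. Of 10 interferon genes on the written pathway list, 8, among them IFNB1, IFNG and IFNA2, had 0 counts in all 8 libraries, and IFNL3 had 1 count. IFNE, an epithelial type I interferon, was read at 0.148 to 0.497 CPM and did not pass the test in either comparison. The receptor chains were present. IFNAR1, a chain of the type I receptor, was read in PC9 parental at 83.1 and 86.8 CPM, PC9-BrM3 at 68.0 and 70.4, shNTC at 59.4 and 59.8, and shHSF1 at 43.5 and 41.9, and fell in the knockdown (-0.45 ± 0.07 on the log2 scale, SE; edgeR adjusted p = 0.000432). Its partner IFNAR2 had -0.17 ± 0.12 (edgeR adjusted p = 0.278). The chains of the type II receptor parted: IFNGR1 rose by 0.75 ± 0.08 and IFNGR2 had a log2 fold change of -0.65 ± 0.08 (edgeR adjusted p = 6.54e-05 and 0.000121).

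Below the receptors, the kinase gene JAK1 fell with shHSF1 (-0.49 ± 0.06, SE; edgeR adjusted p = 0.00012), from 144 and 146 to 101 and 102 CPM, while TYK2 had 0.14 ± 0.07 (edgeR adjusted p = 0.152). The largest change on the pathway list was in ADAR, the enzyme that edits double-stranded RNA and so keeps it from the RNA sensors. The PC9 parental libraries had 423 and 448 CPM of ADAR, PC9-BrM3 403 and 422, shNTC 370 and 358, but both shHSF1 libraries 90.2. That is 3.95-fold lower than in shNTC (log2 fold change -1.98 ± 0.06, SE; edgeR adjusted p = 2.66e-08), with the groups far apart. TBK1, the kinase that activates IRF3, also fell (-0.57 ± 0.07), whereas TRAF3, an adaptor upstream of it, rose by 0.71 ± 0.06, STAT3 by 0.70 ± 0.07 and NLRC5, an activator of MHC class I genes, by 0.97 ± 0.11 (SE; edgeR adjusted p of at most 0.000114). In all, 9 of 33 tested pathway genes were higher and 9 lower with shHSF1 (27.3% each), near the 22.2% and 23.5% of all genes. In the subline comparison 1 of 32 passed (3.12%, beside 7.14% of all genes), SOCS3, a feedback inhibitor of JAK kinases (log2 fold change -1.78 ± 0.31, SE; edgeR adjusted p = 0.0313). It stood at 7.95 and 7.08 CPM in PC9 parental and at 2.70 and 1.57 in PC9-BrM3. With shHSF1 SOCS3 went the other way, from 9.38 and 7.73 CPM in shNTC to 15.7 and 14.0 (0.82 ± 0.12, SE, edgeR adjusted p = 0.000488).

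Among the factors and feedback regulators, 4 of 8 fell with shHSF1, where 23.5% of all genes fell, and 0 of 7 tested passed in the subline comparison, where 7.14% of all genes did. STAT2, a subunit of the ISRE-binding complex, stood at 39.3 and 40.3 CPM in shNTC and at 30.4 and 28.2 in shHSF1, differing by a log2 value of -0.41 ± 0.08 (SE; edgeR adjusted p = 0.00176, and 0.0718 with all 8 libraries in 1 fit). PARP9 and DTX3L encode a complex that enhances interferon signalling, and their genes stand head to head on chromosome 3 with 217 exon bases in common on opposite strands. PARP9 went from 20.9 and 23.1 CPM to 9.33 and 10.4 (-1.13 ± 0.11, SE; edgeR adjusted p = 3.61e-05). DTX3L went from 66.2 and 67.0 CPM to 52.6 and 55.5 (-0.27 ± 0.07, SE; edgeR adjusted p = 0.0101). DTX3L no longer passed when shNTC replicate 2 (adjusted p = 0.0545) or shHSF1 replicate 1 (0.0815) was left out. PARP14, a related ADP-ribosyltransferase, fell from 60.3 and 59.9 to 45.1 and 45.6 CPM (-0.38 ± 0.07, SE; edgeR adjusted p = 0.00135).

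Of the other 4, IRF1, IRF9 and USP18 did not pass in either comparison, and IRF7 did not pass in the knockdown and had too few counts to be tested in the subline comparison. IRF1, a factor of the type II response, was read in PC9 parental at 10.5 and 13.3 CPM, PC9-BrM3 at 11.3 and 12.7, shNTC at 14.6 and 12.5, and shHSF1 at 16.5 and 11.7, and the groups overlapped. Its log2 fold change was 0.09 ± 0.15 with shHSF1 and 0.04 ± 0.21 in PC9-BrM3 (SE). IRF7, the factor that amplifies interferon genes, was read at 0.0888 to 0.170 CPM in untransduced libraries, at 1.88 and 1.46 in shNTC and at 1.61 and 1.38 in shHSF1 (-0.14 ± 0.24, SE). Untransduced and transduced libraries also differ by lane, and IRF7 has 66.8% GC. The difference between them was not tested. IRF9, the DNA-binding part of the ISRE-binding complex, was low: PC9 parental libraries gave 0.834 and 0.618 CPM, PC9-BrM3 0.810 and 0.799, shNTC 0.585 and 0.432, and shHSF1 0.987 and 0.579. Since 48.4% of its exon bases are shared with an overlapping gene on the same strand, reads there could not be assigned and its level is understated. USP18, a protease that removes ISG15 and blocks the receptor, ran from 0.679 to 2.11 CPM.

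The RNA sensors did not pass in the knockdown, and 1 of 4 passed in the subline comparison. DDX58, which encodes RIG-I, stood at 13.3 and 13.2 CPM in PC9 parental and 19.1 and 21.3 in PC9-BrM3. The groups did not overlap, but the difference missed the threshold (log2 fold change 0.63 ± 0.17, SE; edgeR adjusted p = 0.0906). DHX58, which encodes the regulatory sensor LGP2, was higher in PC9-BrM3, at 1.23 and 1.04 CPM against 0.337 and 0.212 (log2 fold change 2.05 ± 0.39, SE; edgeR adjusted p = 0.038). Its call was lost without PC9 parental replicate 1 (adjusted p = 0.166) or replicate 2 (0.356). In the knockdown comparison DDX58 lay between 11.2 and 11.6 CPM in the 4 transduced libraries. IFIH1, which encodes the sensor MDA5, was read in PC9 parental at 8.69 and 11.2 CPM, PC9-BrM3 at 8.26 and 12.5, shNTC at 7.52 and 7.29, and shHSF1 at 8.57 and 8.14 (0.20 ± 0.12 with shHSF1, SE). DDX60 ran from 5.91 to 8.36 CPM, with -0.29 ± 0.13.

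The oligoadenylate synthetases make the second messenger that activates RNase L. All 3 tested in the knockdown fell. OAS1 went from 5.91 and 7.24 CPM in shNTC to 3.33 and 3.39 in shHSF1, differing by a log2 value of -0.94 ± 0.16 (SE; edgeR adjusted p = 0.00114), and OAS3 from 31.7 and 30.8 to 22.5 and 22.96 (-0.43 ± 0.08; edgeR adjusted p = 0.00199). OASL, a relative without synthetase activity, went from 1.67 and 1.00 to 0.649 and 0.717 CPM (-0.95 ± 0.32; edgeR adjusted p = 0.035). OASL lost its call without shNTC replicate 1 (adjusted p = 0.323), shHSF1 replicate 1 (0.136) and shHSF1 replicate 2 (0.0722). OAS1 and OAS3 are neighbours on chromosome 12, where OAS2 is the next gene, and OAS2 was nearly silent at 0 to 0.415 CPM. In the subline comparison OAS3 rose from 12.95 and 13.7 CPM to 32.0 and 34.6 (log2 fold change 1.35 ± 0.16, SE; edgeR adjusted p = 0.0114). That call was lost without PC9 parental replicate 1 (adjusted p = 0.11) or replicate 2 (0.0689), with estimates of 1.30 and 1.37. OAS1 had 0.54 ± 0.24 and OASL -1.50 ± 0.36 there, and neither passed (edgeR adjusted p = 0.232 and 0.0686).

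MX1 and MX2 encode dynamin-like GTPases that trap viral components inside the cell. MX1 stood at 5.24 and 4.49 CPM in shNTC and 3.87 and 3.04 in shHSF1, just past the threshold (log2 fold change -0.47 ± 0.17, SE; edgeR adjusted p = 0.0493). It did not pass with upper-quartile scaling (adjusted p = 0.0863), without shNTC replicate 1 (0.237) or 2 (0.0634), or without shHSF1 replicate 2 (0.249). In the subline comparison MX1 had 0.80 ± 0.28 and MX2 1.07 ± 0.32 (SE; edgeR adjusted p = 0.157 and 0.112).

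The guanylate-binding proteins are GTPases induced above all by type II interferon. GBP1 was read in PC9 parental at 3.32 and 4.25 CPM, PC9-BrM3 at 27.4 and 37.7, shNTC at 12.5 and 6.92, and shHSF1 at 36.2 and 25.5. It was 8.77-fold higher in PC9-BrM3 than in PC9 parental (log2 fold change 3.13 ± 0.26, SE; edgeR adjusted p = 0.00479) and 3.20-fold higher in shHSF1 than in shNTC (1.68 ± 0.33; edgeR adjusted p = 0.0171). GBP2 was read in PC9 parental at 11.4 and 12.7 CPM, PC9-BrM3 at 40.4 and 48.2, shNTC at 9.61 and 8.83, and shHSF1 at 15.3 and 10.8, with log2 fold changes of 1.90 ± 0.18 and 0.53 ± 0.15 (SE; edgeR adjusted p = 0.00622 and 0.0172). Within each comparison the groups did not overlap for either gene. The knockdown call of GBP1 was lost without shHSF1 replicate 1 (adjusted p = 0.106) or 2 (0.0882), and that of GBP2 without shNTC replicate 2 (0.0816) or shHSF1 replicate 1 (0.176), where the GBP2 estimate was as low as 0.28. GBP3, a neighbour on chromosome 1 and not among the 45, went the other way with shHSF1. It stood at 28.6 and 29.1 CPM in shNTC and at 8.08 and 7.56 in shHSF1, differing by a log2 value of -1.85 ± 0.10 (SE; edgeR adjusted p = 6.81e-07). GBP2 shares 9.89% of its exon bases with GBP7 on the same strand.

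**Figure D2:**
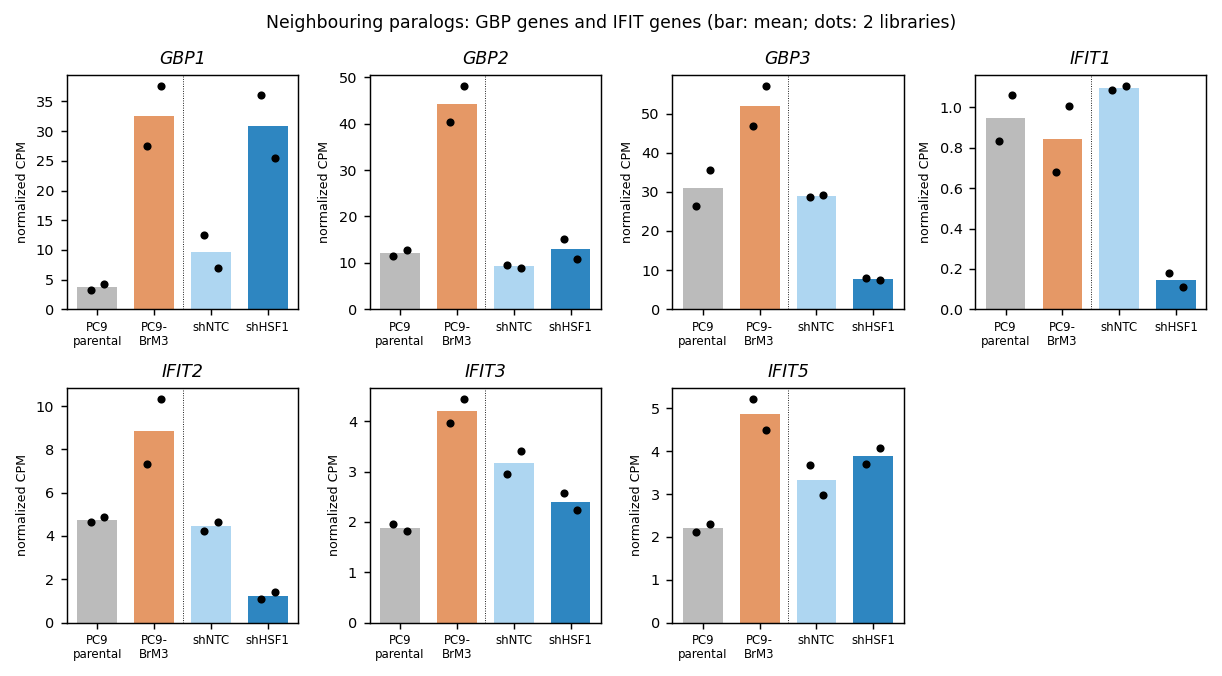
Normalized CPM (vertical axis, from 0) of 3 GBP genes and 4 IFIT genes, 2 groups of neighbouring paralogs, in the 4 groups; bars are means, dots the 2 libraries, and the dotted line parts the lanes. In shHSF1 against shNTC, GBP1 and GBP2 were higher and GBP3 lower, and IFIT1 and IFIT2 were lower while IFIT3 and IFIT5 did not pass the test.

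The IFIT genes, which lie together on chromosome 10, encode proteins that bind foreign RNA ends. IFIT1 was read in PC9 parental at 0.834 and 1.06 CPM, PC9-BrM3 at 0.679 and 1.01, shNTC at 1.09 and 1.11, and shHSF1 at 0.182 and 0.110. IFIT1 was tested only because of its counts in shNTC. With shHSF1, 11 counts faced 93 in shNTC, a ratio of 0.134 (95% counting interval 0.0648 to 0.252), and the log2 fold change was -2.84 ± 0.40 (SE; edgeR adjusted p = 0.000283). IFIT2 stood at 4.24 and 4.65 CPM in shNTC and at 1.09 and 1.41 in shHSF1 (-1.80 ± 0.21, SE; edgeR adjusted p = 7.91e-05). Both calls held under each of the 11 alternatives run, the fit with no count filter among them. Neither IFIT3 (-0.37 ± 0.19) nor IFIT5 (0.25 ± 0.18) passed in the knockdown (SE; edgeR adjusted p = 0.138 and 0.27), and the difference between the paralogs was not tested. In the subline comparison these 2 were the ones that passed. IFIT3 rose from 1.95 and 1.81 to 3.96 and 4.44 CPM (log2 fold change 1.18 ± 0.25, SE; edgeR adjusted p = 0.0477) and IFIT5 from 2.11 and 2.30 to 5.22 and 4.50 (1.17 ± 0.24; edgeR adjusted p = 0.0444). Both calls were lost without PC9 parental replicate 1 (adjusted p = 0.425 for IFIT3 and 0.492 for IFIT5) or replicate 2 (0.504 and 0.405). IFIT2 had 0.92 ± 0.25 there (edgeR adjusted p = 0.0912), with non-overlapping groups.

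Of the IFITM genes, which encode membrane proteins that block virus fusion, only IFITM3 was read above 1 CPM. It ran from 4.72 to 6.42 CPM in untransduced and from 9.56 to 13.3 in transduced libraries and did not pass in either comparison. IFITM1 and IFITM2 share 351 exon bases on the same strand, which is 32.5% of IFITM1, and reads there or in near-identical stretches are uncertain. They were read at up to 0.386 and 0.0565 CPM.

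ISG15 encodes a ubiquitin-like modifier, which HERC5 attaches to target proteins. ISG15 rose with shHSF1, from 5.54 and 5.57 to 8.55 and 8.53 CPM (log2 fold change 0.65 ± 0.13, SE; edgeR adjusted p = 0.00201, and 0.238 with all 8 libraries in 1 fit). HERC6, a related ligase gene, fell from 10.2 and 8.65 to 6.08 and 5.41 CPM (-0.69 ± 0.14, SE; edgeR adjusted p = 0.00239). HERC5 was low throughout, at 0.0888 to 0.461 CPM. In the subline comparison none of the 3 passed, at log2 fold changes of 0.71 ± 0.65 for ISG15, -1.50 ± 0.50 for HERC5 and 0.19 ± 0.20 for HERC6 (SE).

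Among the other antiviral effectors BST2, which encodes tetherin, a membrane protein that holds budding virus on the cell, had the smallest adjusted p of the 45 genes in each comparison. BST2 (chromosome 19 from 17513748 to 17516457 in GRCh37) stood at 2.18 CPM in both PC9 parental libraries and at 84.7 and 47.9 in PC9-BrM3, a 30.8-fold rise (log2 fold change 4.95 ± 0.33, SE; edgeR adjusted p = 0.00344). It stood at 73.6 and 70.7 CPM in shNTC and at 24.6 and 21.1 in shHSF1, 3.10-fold lower (-1.63 ± 0.08; edgeR adjusted p = 5.02e-07). Per kilobase of exon it ranked 12 among the 45 genes in PC9 parental, at 1.95 CPM per kb, and 1 in each other group, at 59.3, 64.5 and 20.4. Both calls held under every alternative run.

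SAMD9, a growth and virus restriction factor, rose with shHSF1 from 8.90 and 7.75 to 15.9 and 15.5 CPM (log2 fold change 0.94 ± 0.11, SE; edgeR adjusted p = 0.000108), a call that held under the 11 alternatives. Its neighbour SAMD9L was read at 0.207 to 0.637 CPM and had 0.21 ± 0.47 (edgeR adjusted p = 0.75). SP100, a nuclear body protein, stood at 55.3 and 62.9 CPM in PC9 parental and at 31.9 and 36.9 in PC9-BrM3. That difference just missed the threshold (-0.75 ± 0.16, SE; edgeR adjusted p = 0.0525), and in the knockdown SP100 had 0.06 ± 0.08. TRIM21, an antibody receptor and ubiquitin ligase, ran from 4.91 to 7.39 CPM over the 8 libraries and did not pass in either comparison. ISG20, an exonuclease, was read at 0.0592 to 0.662 CPM.

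The remaining genes hold XAF1 and EPSTI1, both past the threshold in both comparisons. XAF1 (chromosome 17 from 6658766 to 6678966 in GRCh37) encodes a binding partner of the caspase inhibitor XIAP. It had 1 and 2 counts in PC9 parental and 157 and 208 in PC9-BrM3, a ratio of 152 (95% counting interval 51.5 to 738; edgeR adjusted p = 0.00622). It stood at 1.65 and 1.59 CPM in shNTC and at 0.753 and 0.828 in shHSF1, differing by a log2 value of -1.01 ± 0.25 (SE; edgeR adjusted p = 0.00895), a call lost without shHSF1 replicate 1 (adjusted p = 0.052). EPSTI1 was higher in PC9-BrM3, with 47 counts against 9 (ratio 6.51, 95% counting interval 3.15 to 15.1; edgeR adjusted p = 0.0359), and in shHSF1, at 1.38 and 1.05 CPM against 0.606 and 0.540 (1.10 ± 0.29, SE; edgeR adjusted p = 0.0121). Its subline call was lost without PC9 parental replicate 1 (adjusted p = 0.188) or 2 (0.347), and its knockdown call without shNTC replicate 2 (0.0587) or shHSF1 replicate 1 (0.0993). IFI35, which encodes a leucine zipper protein, fell with shHSF1 from 16.9 and 18.7 to 13.95 and 10.95 CPM (-0.48 ± 0.13, SE; edgeR adjusted p = 0.0108), and not past the threshold without shNTC replicate 2 (adjusted p = 0.069) or shHSF1 replicate 2 (0.0763). IFI6, a mitochondrial protein, was read at up to 0.857 CPM and did not pass.

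Several genes that are hallmarks of an interferon response were silent or nearly so. RSAD2, which encodes viperin, had 0 counts in all 8 libraries. Its divergent neighbour CMPK2 had 4 counts in total, IFI44L 6, IFI44 12 and IFI27 24. In all, 13 of the 45 genes stayed under 1 CPM in every library. In bulk libraries, fewer expressing cells and less RNA per cell cannot be told apart.

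**Figure D3:**
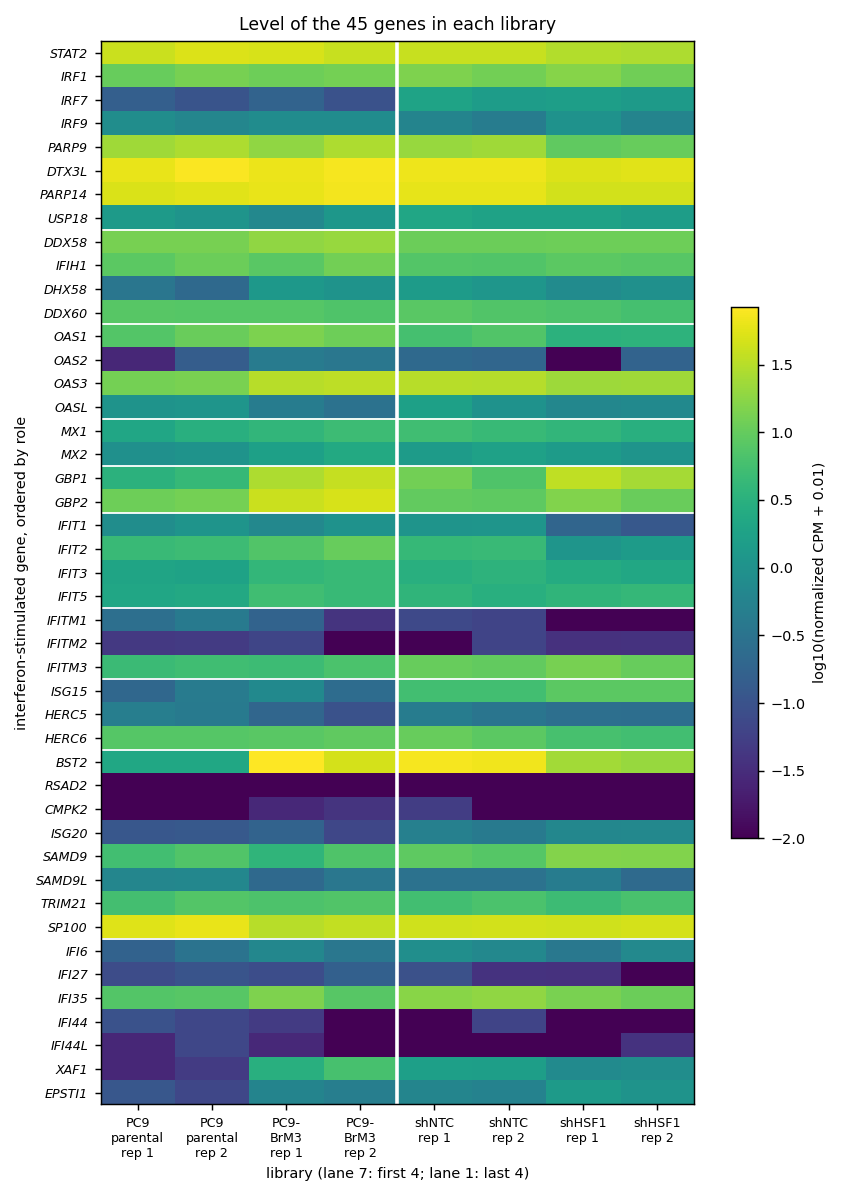
Level of each of the 45 genes (rows, by role, parted by white lines) in each of the 8 libraries (columns), as log10 of normalized CPM plus 0.01; the white vertical line parts lane 7 from lane 1. RSAD2 is at the floor in every library, and BST2 and XAF1 are low in the 2 PC9 parental libraries and higher in the other 6.

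Of the 35 genes tested in both comparisons 6 passed in both. Over the 16201 genes tested in both, 4.08% passed in each. GBP1, GBP2 and EPSTI1 were higher in PC9-BrM3 and higher with shHSF1. BST2, XAF1 and OAS3 were higher in PC9-BrM3 and lower with shHSF1. The 2 comparisons share no library.

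**Figure D4:**
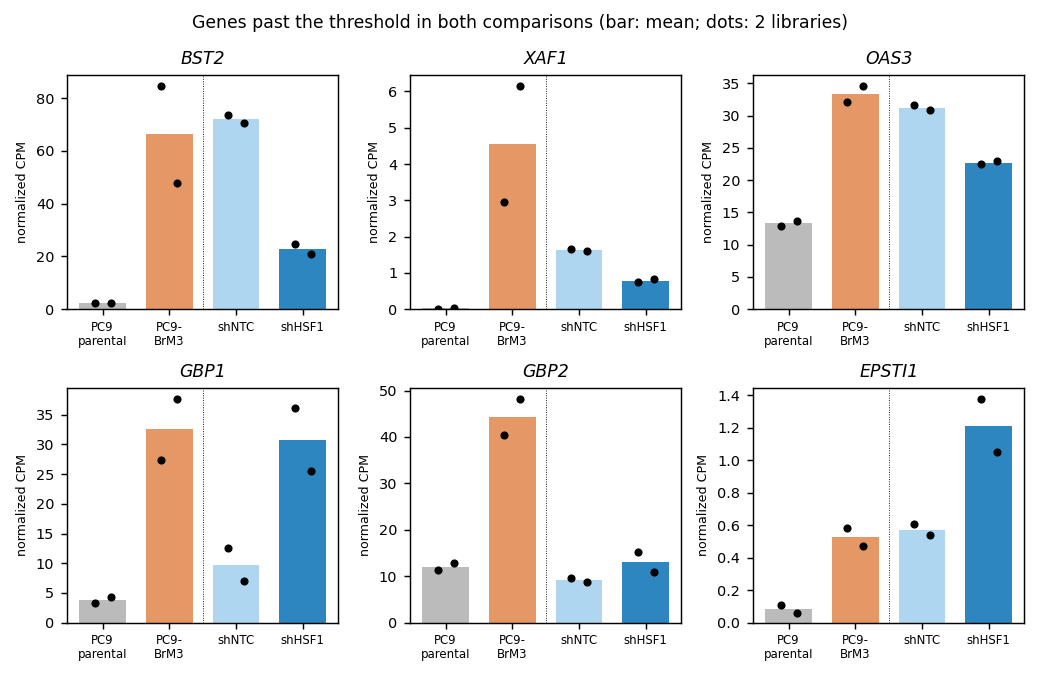
Normalized CPM (vertical axis, from 0) of the 6 genes past the threshold in both comparisons, in the 4 groups; bars are means, dots the 2 libraries, and the dotted line parts the lanes. BST2, XAF1 and OAS3 are lower in shHSF1 than in shNTC, whereas GBP1, GBP2 and EPSTI1 are higher.

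Levels in shNTC and in untransduced PC9-BrM3 differed for some genes, but the lane, the transduction, puromycin and doxycycline cannot be told apart there and no test was made. GBP1 averaged 9.72 ± 3.96 CPM in shNTC and 32.6 ± 7.22 in PC9-BrM3, and GBP2 9.22 ± 0.55 and 44.3 ± 5.51 (SD, n = 2 each). ISG15 averaged 5.55 ± 0.02 and 0.477 ± 0.339. The ratio between these groups moved with GC content over all genes tested: the median log2 ratio (pseudocount 0.5 CPM) was -0.19 in GC quartile 1, the lowest, and 0.74 in GC quartile 4. ISG15, at 63.4% GC, lies in GC quartile 4 and had 2.63. GBP1 and GBP2, at 42.8% and 44.4% GC, lie in GC quartile 2, whose median was -0.15, and had -1.69 and -2.20.

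A further list of 58 interferon-stimulated genes outside the 45 was read in the same fits. With shHSF1 14 of 47 tested were lower and 7 higher, which is 44.7% called, beside 45.7% of all genes, and their median log2 fold change was -0.16. Beside GBP3, the calls with the smallest p were lower LAMP3, a lysosomal membrane protein (-2.08 ± 0.17), UBE2L6, the conjugating enzyme for ISG15 (-0.78 ± 0.10), and PARP10 (-0.93 ± 0.13). On the higher side were TAP1, the peptide transporter of antigen presentation (1.24 ± 0.09), STOM (1.05 ± 0.13), TYMP (0.96 ± 0.18) and WARS1, a tRNA synthetase (0.40 ± 0.08, SE; edgeR adjusted p at most 0.00203). In PC9-BrM3 4 of 49 were higher and 1 lower than in PC9 parental (10.2% called, beside 7.14% of all genes). The higher ones were APOL1, a serum protein that lyses trypanosomes (2.01 ± 0.20), PARP10 (2.51 ± 0.35), UBE2L6 (0.72 ± 0.15) and C1S, a complement protease (1.37 ± 0.28), and the lower one was STOM (-1.45 ± 0.24, SE; each edgeR adjusted p at most 0.0473). PARP10 and UBE2L6 were thus higher in PC9-BrM3 and lower with shHSF1, and STOM was lower in PC9-BrM3 and higher with shHSF1.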

How the data were processed

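The authors deposited raw counts for 8 RNA-seq libraries. Per the file headers, featureCounts 1.6.1 counted reads over exons by Ensembl gene identifier, reverse-stranded, on a GRCh37 annotation, with no option for reads over more than 1 gene. Trim Galore, HISAT2 and DESeq2 are named per the submitters' processing notes. Groups came from the sample titles. Each comparison was fitted on its own 4 libraries with edgeR 4.0.16 in R 4.3.3, using TMM factors after filterByExpr at a count of 10 and a total of 15, the robust quasi-likelihood F test, and Benjamini-Hochberg adjustment over all genes tested, with a threshold of 0.05. The fit has 2 residual degrees of freedom. Levels are CPM on TMM-scaled library sizes of all 8 libraries, and SE is the log2 fold change over the root of F. Count ratios carry 95% intervals from the exact binomial. These and the limits set by 3 counts cover counting error alone.

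The 45 genes and the other lists were chosen with earlier results of these data known. Every one of the 45 could be named. Library values are given for genes past the threshold in both comparisons, the 8 largest rises and falls in each, the main factors and sensors, and paralogs that parted. From the other lists JAK1, TYK2, IFNAR1, IFNAR2, IFNB1 and up to 4 calls per list, direction and comparison were named; 1 gene of that rule is not reported here. IKBKE, CCL5 and PECAM1 were not analysed here. On simulated counts with 200 changed genes the fit recovered 54% of 1.5-fold and 90% of 2-fold changes in the knockdown comparison (16840 genes). In the subline comparison it recovered 47% and 92% (17372 genes). Of the calls, 5.7% and 3.4% were false. The simulated spread was set by a formula and not taken from these libraries. Changed genes were drawn from those above 1 CPM, and 200 is far under the 7701 genes called in the knockdown. These rates therefore do not give the power of the present tests, least of all for genes of low count. GC content came from the longest GENCODE 29 transcript. Alternatives were RLE and upper-quartile factors, no count filter, DESeq2 1.42.0, all 8 libraries in 1 fit, a replicate block and each library left out; leaving out mitochondrial genes was chosen after seeing the data.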

Additional observations from a re-analysis of the deposited data

How the results depend on the processing

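Of the 19 knockdown calls among the 45 genes 9 held under every one of the 11 alternatives run, as did 4 of the 9 subline calls (BST2, XAF1, GBP1 and GBP2). With all 8 libraries in 1 fit, the knockdown calls were 11 among the 45 genes, 10 in the pathway list, 12 among the other interferon-stimulated genes and 3873 over all genes. In the subline comparison that fit called 16, 4, 10 and 3813. Without a count filter 4 pathway genes and 3159 of all genes passed in the subline comparison, and DESeq2 called 2147 of all genes. With 1 library left out, the subline calls ran from 4 to 20 among the 45 genes, from 0 to 16 in the pathway list, from 1 to 25 among the other interferon-stimulated genes and from 402 to 9228 over all genes. The cause was not tested. The fit of all 8 libraries ended 8 knockdown calls, those of STAT2 (adjusted p = 0.0718), ISG15 (0.238), DTX3L (0.177), OASL (0.0734), MX1 (0.192), GBP2 (0.0852), IFI35 (0.197) and XAF1 (0.102). DESeq2 ended those of OASL (0.153), MX1 (0.151), XAF1 (0.0707) and EPSTI1 (0.0956), and the lack of a count filter that of GBP1 (0.169). The labels tie same-numbered replicates by number alone. The correlation of their deviations was 0.012 for shHSF1 against shNTC and -0.002 for the subline, which with 2 libraries per group cannot settle whether they were paired. A replicate block gave 19 knockdown calls and 7 subline calls among the 45 genes, with IFIT3 (adjusted p = 0.0594) and IFIT5 (0.056) no longer past the threshold.

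Estimates that changed sign were of genes past the threshold neither before nor after. With 1 library left out, knockdown log2 fold changes ran from -0.16 to 0.30 for IRF1, -0.29 to 0.053 for IRF7, -0.36 to 0.60 for SAMD9L, -0.011 to 0.13 for SP100 and -0.27 to 0.12 for TRIM21. Subline log2 fold changes ran from -0.18 to 0.15 for DTX3L, -0.27 to 0.36 for IFIH1, -0.48 to 0.13 for IFIT1, -0.025 to 0.39 for IFITM3, -0.15 to 0.063 for IFNAR2, -0.13 to 0.20 for IRF1, -0.043 to 0.39 for IRF9, -0.33 to 1.32 for ISG15, -0.031 to 0.20 for JAK1, -0.44 to 0.18 for PARP9, -0.75 to 0.18 for SAMD9, -0.22 to 0.12 for STAT2, -0.068 to 0.31 for TRIM21, -0.062 to 0.19 for TYK2 and -0.83 to 0.008 for USP18.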
